A study of Mus musculus with 37 samples.

Results

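The interferon-stimulated genes described here are 42 genes that cells switch on when type I or type II interferon reaches them. They comprise the IFIT proteins Ifit1, Ifit2, Ifit3 and Ifit3b, the ISG15 system with Isg15, Usp18 and Trim25, the oligoadenylate synthetase family with Oas1a, Oas2, Oas3, Oasl1 and Oasl2, and the antiviral effectors Rsad2, Cmpk2, Mx1, Mx2, Bst2, Ifitm3 and Samd9l. They also comprise the transcription factors Irf1, Irf7, Irf9 and Stat2, the nucleic acid sensors Ifih1, Ddx58, Dhx58 and Zbp1, the immunity-related GTPases and guanylate-binding proteins Iigp1, Igtp, Irgm1, Ifi47, Gbp2, Gbp3 and Gbp7, the PARP9-DTX3L group with Parp9, Parp14 and Dtx3l, and the interferon-induced genes Ifi35, Ifi44, Xaf1, Trim30a and Rtp4. The genes were chosen by symbol from a list drawn up with the changes of interferon genes against vehicle in these libraries in view, so their changes with conditioned medium are given as a description, with the call of a fit across all genes but without a p-value of their own. All 42 were among the 30892 genes of the table of cardiac fibroblasts (CFs), 34 were among the 20158 genes of the table of neonatal rat ventricular myocytes (NRVMs), and 41 were among the 31053 genes of the single-cell tables, where Mx2 was not listed.

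The series held 37 libraries. CFs were mouse cardiac fibroblasts immortalized with SV40 and derived from wild-type C57BL/6 animals, and they received medium conditioned by cardiac myocytes (myocyte-conditioned medium, MCndM) that had been given vehicle, ENPP1, ATP, ENPP1+ATP or AMP. They were harvested after 24 h or 48 h, with 2 libraries for each medium and time. NRVMs of Sprague-Dawley rats received the same 5 kinds of medium for 24 h, with 3 libraries for each. ENPP1 is an enzyme on the cell surface that cuts extracellular ATP to AMP. For the single-cell libraries, nonmyocytes were taken from injured hearts at 7 days after the left anterior descending artery was tied off permanently, 1 library from ENPP1CKO mice and 1 from control littermates. ENPP1CKO mice carried Col1a2-CreERT and floxed ENPP1 and were given tamoxifen, so deletion was directed to cells that express collagen 1a2. One immortalized fibroblast line is a limited model of the fibroblasts of a heart, and neonatal myocyte cultures keep other cell types, as their marker genes show below. Nothing in the labels says whether libraries of a group came from separate cultures, so p-values measure the spread between these libraries, which may be technical.

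Type I interferons bind the receptor made of IFNAR1 and IFNAR2, which activates the kinases JAK1 and TYK2. Phosphorylated STAT2 and IRF9 are parts of the complex ISGF3, which binds the interferon-stimulated response element (ISRE) in promoters of the genes described here. Interferon gamma acts mainly through a different element, GAS. IRF7 and the sensors RIG-I (Ddx58), MDA5 (Ifih1) and LGP2 (Dhx58) feed back on interferon production, while USP18 restrains signalling at the receptor. In the injured heart, interferon genes are known to be active in resident cells and in infiltrating macrophages.

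The promoters show how far the members share the element. The 250 bases before the start of 32 of the 42 members were found in the RefSeq promoter table of build GRCm38.p6, and the core of the ISRE, searched on both strands as GAAA, any 2 bases and GAAA, occurred in 15 of these 32 (46.9%). The same letters occurred in 936 of all 27025 genes of that table (3.46%). The letters of the GAS element, TTC, any 3 bases and GAA, which read the same on both strands, occurred in 6 of the 32 members (18.8%) and in 8.13% of all genes. Matches to the ISRE letters may overlap each other, as they do in Bst2 and Isg15, and a match is no measurement of binding. Promoters of 4 members with a match are printed in the order of their change in CFs at 24 h with ENPP1+ATP, followed by 2 members that changed as much without a match, so that both kinds can be seen. The capitals mark the ISRE letters. The windows are Bst2 chr8:71537473-71537722, minus strand, Isg15 chr4:156200819-156201068, minus strand, Ifit1 chr19:34640639-34640888, plus strand, Ifit3 chr19:34583279-34583528, plus strand, Ifi47 chr11:49076337-49076586, plus strand and Ifit2 chr19:34550444-34550693, plus strand, and all are written 5′ to 3′ towards the start.
Bst2: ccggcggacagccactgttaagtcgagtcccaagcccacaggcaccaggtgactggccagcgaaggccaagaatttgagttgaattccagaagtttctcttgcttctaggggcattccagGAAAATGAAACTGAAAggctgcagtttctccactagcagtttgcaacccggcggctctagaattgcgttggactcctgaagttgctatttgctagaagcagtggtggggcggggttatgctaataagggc
Isg15: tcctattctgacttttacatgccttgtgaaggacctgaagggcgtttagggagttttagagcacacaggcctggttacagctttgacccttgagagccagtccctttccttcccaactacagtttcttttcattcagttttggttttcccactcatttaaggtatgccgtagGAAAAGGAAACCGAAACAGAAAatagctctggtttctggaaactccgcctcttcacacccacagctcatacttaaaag
Ifit1: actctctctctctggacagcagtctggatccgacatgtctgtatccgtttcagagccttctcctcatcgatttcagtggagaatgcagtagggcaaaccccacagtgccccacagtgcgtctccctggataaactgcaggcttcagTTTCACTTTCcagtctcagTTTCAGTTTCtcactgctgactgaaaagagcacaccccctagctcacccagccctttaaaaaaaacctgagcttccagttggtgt
Ifit3: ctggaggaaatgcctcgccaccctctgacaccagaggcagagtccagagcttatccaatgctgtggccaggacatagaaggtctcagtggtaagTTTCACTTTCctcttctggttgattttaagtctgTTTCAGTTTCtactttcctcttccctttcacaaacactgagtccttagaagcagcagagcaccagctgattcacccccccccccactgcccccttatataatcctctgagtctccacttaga
Ifi47: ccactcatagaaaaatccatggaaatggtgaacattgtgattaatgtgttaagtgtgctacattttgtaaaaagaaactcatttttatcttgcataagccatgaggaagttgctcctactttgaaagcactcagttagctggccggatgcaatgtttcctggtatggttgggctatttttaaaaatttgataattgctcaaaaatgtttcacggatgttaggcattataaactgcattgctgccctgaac
Ifit2: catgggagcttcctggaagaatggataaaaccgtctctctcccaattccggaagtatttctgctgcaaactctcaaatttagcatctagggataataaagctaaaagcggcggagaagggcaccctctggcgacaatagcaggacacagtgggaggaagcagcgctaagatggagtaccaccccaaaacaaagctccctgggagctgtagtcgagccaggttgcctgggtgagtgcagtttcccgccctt
Bst2 and Isg15 held 2 and 3 overlapping matches, with the last one ending 114 and 56 bases before the start. Ifit1 and Ifit3 each held 2 separate matches on the other strand, the same TTTCACTTTC and TTTCAGTTTC in both genes. Ifi47 and Ifit2 held none in this window, which says nothing of what lies outside it.

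Total counts were 32184799 to 53233534 in 18 of the 20 CF libraries, 74110869 in AMP replicate 2 at 24 h and 115824659 in vehicle replicate 1 at 24 h, and they were 13481389 to 16977980 in the NRVM libraries. Values are counts scaled to the library total (CPM) after TMM scaling, and a gene was called higher or lower at an adjusted p under 0.05 in edgeR's quasi-likelihood fit over all genes tested. Other features of the cultures moved with the media. In CFs at 24 h, all 10 fibroblast markers were detected and their summed level was 7220 to 7625 CPM with vehicle, 3611 to 3707 CPM with ENPP1+ATP and 2831 to 3055 CPM with AMP, while the summed level of 10 cell cycle genes was 1711 to 1730 CPM, 3696 to 3977 CPM and 3599 to 3974 CPM. The 10 macrophage markers summed to at most 5.94 CPM with vehicle at 24 h, 32.8 CPM with ENPP1+ATP and 53.2 CPM with AMP. In NRVMs, 9 cardiomyocyte markers summed to 29103 to 30080 CPM with vehicle and 24431 to 25426 CPM with ENPP1+ATP, and 9 fibroblast markers summed to 24942 to 26324 CPM and 8451 to 8914 CPM, so these cultures held RNA of both cell types. With AMP the cardiomyocyte and fibroblast markers summed to 28372 to 29893 CPM and 11730.3 to 12525 CPM, and with ATP to 16595 to 17626 CPM and 10552 to 11893 CPM. In NRVMs 9 macrophage markers summed to 7.30 to 8.34 CPM with vehicle and 10.4 to 11.9 CPM with ENPP1+ATP. They had 10.7 to 12.1 CPM with AMP and 15.5 to 17.7 CPM with ATP. The 5 neutrophil markers had 0.758 to 1.45 CPM with vehicle and 3.64 to 5.43 CPM with ENPP1+ATP. For 9 endothelial markers these values were 256 to 314 CPM and 159 to 181 CPM. For 4 B cell markers they were 15.3 to 16.9 CPM and 6.27 to 7.75 CPM. At 48 h the fibroblast markers of CFs summed to 7128 to 7541 CPM with vehicle, 3880 to 4096 CPM with ENPP1+ATP and 4077 to 4362 CPM with AMP. The macrophage markers then summed to 6.51 to 7.20 CPM, 59.9 to 69.6 CPM and 65.2 to 75.4 CPM, and 10 smooth muscle or pericyte markers to 131 to 135 CPM, 360.4 to 373 CPM and 405 to 432 CPM, while the cell cycle genes had 1683 to 1742 CPM, 2488 to 2553 CPM and 2427 to 2466 CPM. At 24 h 5 monocyte markers of CFs had 19.9 to 24.1 CPM with vehicle and 16.5 to 16.9 CPM with ENPP1+ATP. With AMP they had 13.5 to 14.4 CPM. At 48 h they had 15.6 to 18.2 CPM with vehicle and 5.78 to 7.60 CPM with ENPP1+ATP. With AMP they then had 6.64 to 7.24 CPM. The part of these differences in the results below was not tested. In bulk RNA, fewer cells of a type and less RNA per cell cannot be told apart.

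CFs in vehicle medium already expressed all 42 genes. Divided by the length of the merged exons (RPKM, from mm10 gene models), Ifitm3, which blocks viral entry, was the most abundant in vehicle medium at 24 h with 1757 ± 25.2 RPKM (SD, n = 2), followed by Bst2, the membrane tether of budding virions, with 1338 ± 33.8. Isg15, the ubiquitin-like protein of the interferon response, had 772 ± 29.6 RPKM and Ifit3 448 ± 9.65. These first 4 genes were separated by more than their spread. Oasl2 at 253 ± 1.79 and Irf7 at 250.4 ± 11.7 RPKM were neighbours that did not differ beyond it, nor did Oas1a at 134 ± 12.6 and Ifit3b at 133 ± 3.32. At the low end stood Irf1 at 29.7 ± 0.154, the GTPases Mx1 at 20.1 ± 2.28 and Ifi47 at 17.3 ± 1.73, and Oas3 at 7.28 ± 1.18 RPKM. Ifit3 and Ifit3b are near-identical copies whose reads the counting may have split, and Mx2 is annotated as a polymorphic pseudogene in this strain's gene models, so their levels are uncertain.

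Which members changed in CFs with medium from myocytes given both ENPP1 and ATP, and whether AMP did the same, was compared first. At 24 h with ENPP1+ATP, 22 of the 42 members were lower and 3 were higher, beside 25.3% of all 17879 genes tested called lower and 23.9% called higher. More members were higher with no filter on low counts or with the replicate block. With AMP, 19 were lower and 5 higher, beside 27.5% and 25.3%. The median log2 fold change of the members was -0.28 with ENPP1+ATP and -0.21 with AMP, and over all genes it was -0.00456 and -0.00583. The members' median was -0.16 without ENPP1+ATP replicate 1, and with AMP it was -0.057 without AMP replicate 1 and -0.37 without AMP replicate 2. Since changes in these contrasts chose the members, nothing is read from the shares. At 48 h, 27 members were lower and 0 higher with ENPP1+ATP (24.4% and 20.8% of all genes), and 32 were lower and 0 higher with AMP (22.9% and 21.1%), with medians of -0.36 and -0.49. The comparisons share the vehicle libraries of their time.

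**Figure D1:**
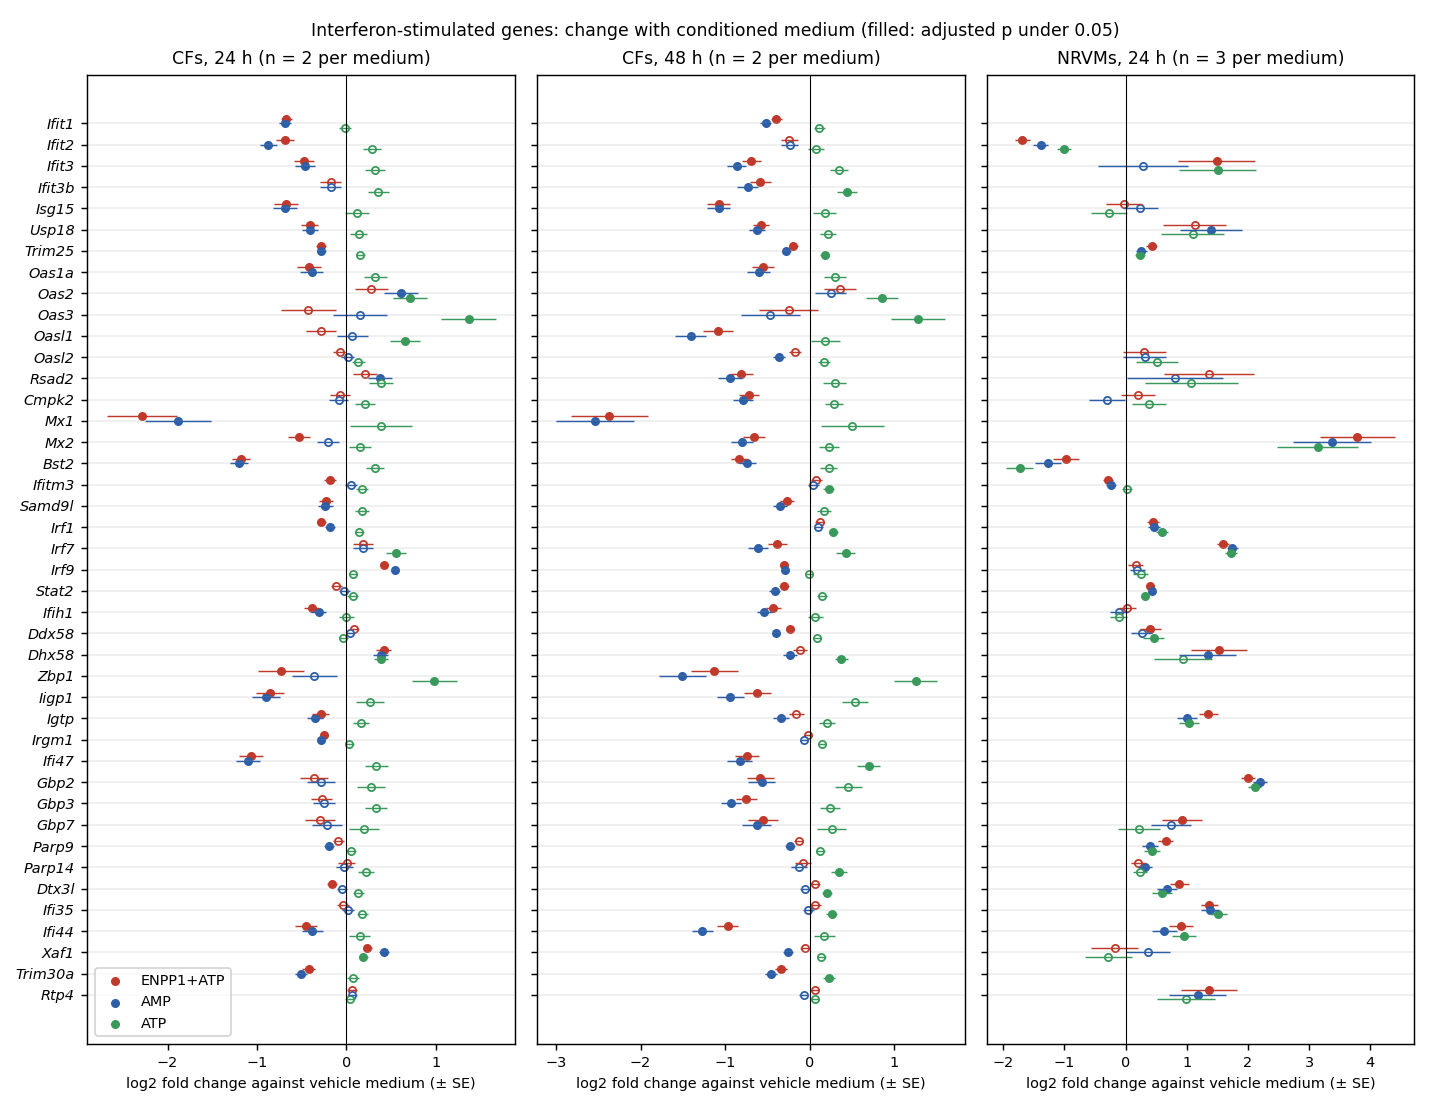
Log2 fold change of each member against vehicle medium, with its SE, in CFs at 24 h and 48 h (n = 2 libraries per medium) and in NRVMs at 24 h (n = 3), for ENPP1+ATP (red), AMP (blue) and ATP (green). Filled points passed an adjusted p of 0.05, and genes without a point in NRVMs were not tested there. Most points of ENPP1+ATP and AMP lie left of 0 in CFs, down to -2.54 for Mx1, and right of 0 in NRVMs, where Ifit2, Bst2 and Ifitm3 have the filled points to the left.

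The largest decrease was that of Mx1 (chromosome 16, 97447035 to 97462907 in mm10), a dynamin-like GTPase that blocks influenza virus and is defective in C57BL/6 mice. Its level was 70.2 and 82.3 CPM in the vehicle libraries at 24 h, 12.6 and 18.4 CPM with ENPP1+ATP and 11.99 and 27.9 CPM with AMP. At 48 h it was 30.9 and 28.5 CPM with vehicle, 3.74 and 7.95 CPM with ENPP1+ATP and 3.80 and 6.37 CPM with AMP. All treated libraries of Mx1 lay below both vehicle libraries of their time, and the log2 fold changes were -2.29 ± 0.39 and -1.88 ± 0.37 at 24 h and -2.37 ± 0.46 and -2.54 ± 0.46 at 48 h (± SE, n = 2). Bst2 (chromosome 8, 71534255 to 71537456) stood at 1187 and 1230.2 CPM with vehicle at 24 h against 468 and 599 with ENPP1+ATP and 490.5 and 559 with AMP, log2 fold changes of -1.18 ± 0.10 and -1.20 ± 0.10. Its decrease at 48 h was -0.83 ± 0.10 and -0.74 ± 0.10, again without overlap of the libraries.

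The GTPase Ifi47 (chromosome 11, 49076587 to 49096974), which acts at vacuoles of intracellular pathogens, stood at 39.9 and 45.9 CPM with vehicle at 24 h and at 18.1 and 22.7 CPM with ENPP1+ATP and 16.3 and 23.1 CPM with AMP. The related GTPase Iigp1 stood at 383 and 429.9 CPM with vehicle against 203 and 246 CPM with ENPP1+ATP and 194 and 241 CPM with AMP. In both genes the treated libraries were all below the vehicle libraries, with log2 fold changes of -1.07 ± 0.14 and -1.10 ± 0.13 for Ifi47 and of -0.86 ± 0.16 and -0.90 ± 0.15 for Iigp1. Of the 7 immunity-related GTPases and guanylate-binding proteins, 4 were lower with ENPP1+ATP at 24 h and 5 at 48 h, and with AMP 4 at 24 h and 6 at 48 h. Of all genes, 25.3% and 24.4% were lower with ENPP1+ATP at these times and 27.5% and 22.9% with AMP. The guanylate-binding proteins Gbp2, Gbp3 and Gbp7 were called lower at 48 h and not at 24 h, but of these 3 the change itself differed between the times past the threshold for Gbp3 with AMP alone, and Gbp2 with ENPP1+ATP was at -0.36 ± 0.16 and -0.58 ± 0.16. Irgm1 was called lower at 24 h, with log2 fold changes of -0.25 ± 0.048 and -0.28 ± 0.048.

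Isg15 (chromosome 4, 156199424 to 156200818), which is conjugated to other proteins, had 568 and 599 CPM with vehicle at 24 h, 329 and 402 CPM with ENPP1+ATP and 311 and 413 CPM with AMP. At 48 h it had 395 and 407 CPM with vehicle, 175 and 207 CPM with ENPP1+ATP and 201 and 179 CPM with AMP. The decrease was -0.68 ± 0.13 and -0.69 ± 0.13 at 24 h and -1.07 ± 0.14 and -1.08 ± 0.14 at 48 h on the log2 scale. Usp18, the protease that removes ISG15, and Trim25, a ubiquitin and ISG15 ligase, were lower with both media at both times, with log2 fold changes from -0.62 to -0.19. The 3 genes of this system were therefore called lower in each of these 4 comparisons, beside 22.9% to 27.5% of all genes.

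Among the IFIT proteins, which bind viral RNA, Ifit1 (chromosome 19, 34640871 to 34650009) had 625 and 636 CPM with vehicle at 24 h, 375 and 417 with ENPP1+ATP and 351 and 429 with AMP. Ifit2 had 174 and 192 CPM with vehicle, 107 and 119 CPM with ENPP1+ATP and 89.4 and 109.5 CPM with AMP. At 48 h Ifit1 was still lower, -0.39 ± 0.066 and -0.52 ± 0.066, whereas Ifit2 at -0.24 ± 0.10 and -0.23 ± 0.10 did not pass the test. Ifit3 had 770.2 and 794 CPM with vehicle, 523 and 604 CPM with ENPP1+ATP and 483 and 651 CPM with AMP at 24 h, and at 48 h 516 and 518 CPM with vehicle, 299 and 341 CPM with ENPP1+ATP and 279.8 and 289 CPM with AMP, and it was called lower in all 4 comparisons. The calls within this family thus differed between the times.

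**Figure D2:**
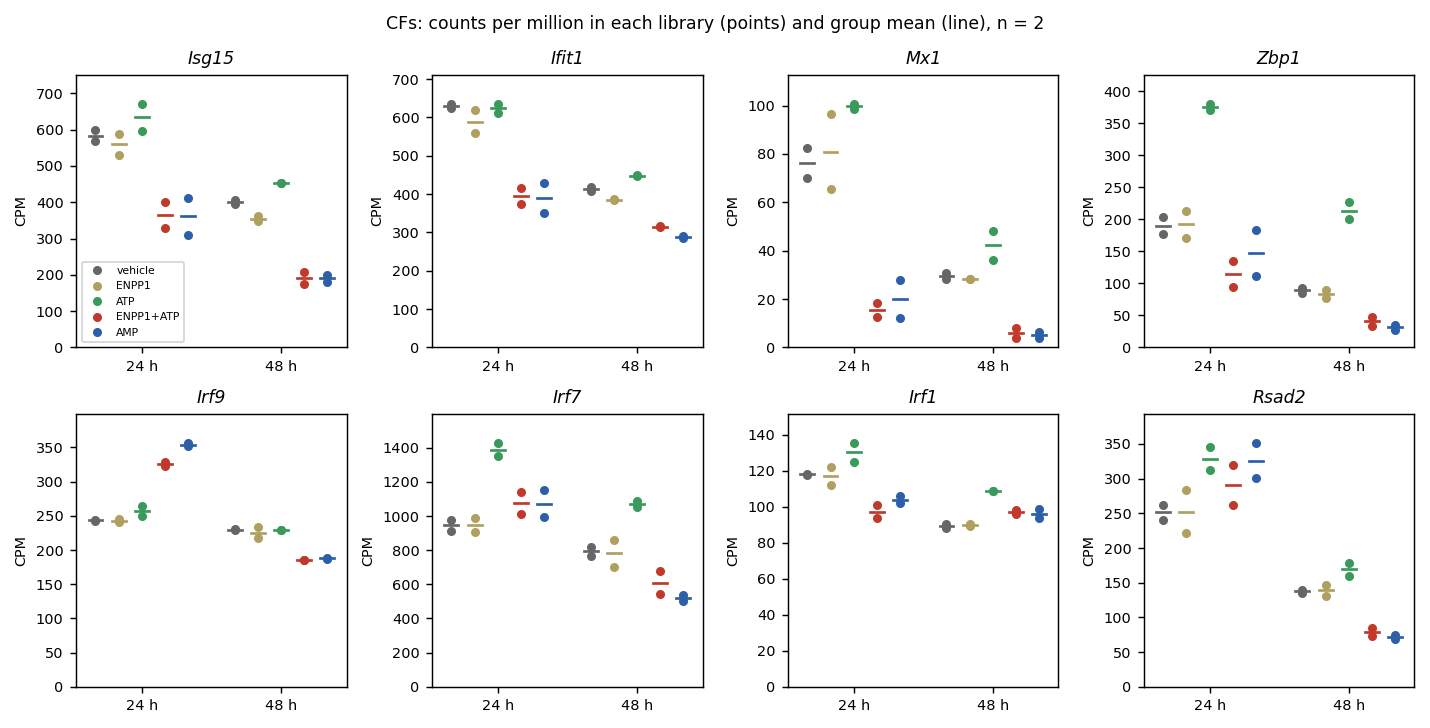
Level of 8 members in each CF library in CPM on axes that start at 0, for the 5 media at 24 h and 48 h, with a line at the mean of the 2 libraries. Isg15, Ifit1 and Mx1 lie below vehicle with ENPP1+ATP and AMP at both times, and Irf9 lies above vehicle at 24 h and below it at 48 h. Zbp1 is highest with ATP alone.

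The transcription factors did not share 1 pattern. Irf9 (chromosome 14, 55603571 to 55610030), the DNA-binding part of ISGF3, had 244 and 242 CPM with vehicle at 24 h, 323 and 328 with ENPP1+ATP and 356 and 352 with AMP, and was called higher with 0.42 ± 0.042 and 0.54 ± 0.042. At 48 h it had 230.5 and 229 CPM with vehicle, 185 and 186 CPM with ENPP1+ATP and 188 and 187 CPM with AMP, and was called lower with -0.31 ± 0.043 and -0.29 ± 0.043. Its libraries did not overlap at either time. Irf7, which amplifies interferon production, had 914 and 977 CPM with vehicle, 1011 and 1139 with ENPP1+ATP and 991 and 1151 with AMP at 24 h, differences that were not called, and 766 and 821 CPM with vehicle, 544 and 676 CPM with ENPP1+ATP and 505 and 535 CPM with AMP at 48 h, where it was lower by -0.38 ± 0.11 and -0.61 ± 0.11.

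Stat2, a part of ISGF3, had 777 and 772 CPM with vehicle, 698 and 736 CPM with ENPP1+ATP and 695 and 829 CPM with AMP at 24 h. At 48 h it had 619 and 614 CPM with vehicle, 489 and 509 CPM with ENPP1+ATP and 440.2 and 486 CPM with AMP, and it was called lower there, -0.30 ± 0.061 and -0.41 ± 0.061. At 24 h it was not called, though both ENPP1+ATP libraries already lay below both vehicle libraries, and its change differed between the times past the threshold with AMP but not with ENPP1+ATP. Irf1, a factor of the interferon gamma response, went the other way in time: it had 118 and 118 CPM with vehicle, 93.6 and 101 CPM with ENPP1+ATP and 106 and 102 CPM with AMP at 24 h, called lower, and 90.5 and 88.4 CPM with vehicle, 98.4 and 95.9 CPM with ENPP1+ATP and 93.6 and 98.7 CPM with AMP at 48 h, not called. In all libraries of Irf1 at 48 h the treated values were above the vehicle values.

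The sensors were split as well. Dhx58, a regulator of the RNA sensors, was called higher at 24 h, 304 and 301 CPM with vehicle against 374 and 434 with ENPP1+ATP and 357 and 432 with AMP. Xaf1, an interferon-induced gene linked to cell death, was also called higher at 24 h, 275 and 268 CPM with vehicle against 309 and 329.5 CPM with ENPP1+ATP and 357 and 369 CPM with AMP. Irf9, Dhx58 and Xaf1 were the 3 members called higher with ENPP1+ATP, and with AMP the synthetase Oas2 (328 and 346 CPM with vehicle, 422 and 605 CPM with AMP) and Rsad2, the radical enzyme viperin (241 and 263 CPM with vehicle, 300.3 and 351 CPM with AMP), were added to them. Oas2 and Rsad2 lost the call without AMP replicate 2, without vehicle replicate 1 and without vehicle replicate 2, and 3 members were then higher.

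Zbp1, a sensor of left-handed nucleic acid that can start necroptosis, had 177 and 204 CPM with vehicle, 93.6 and 135 with ENPP1+ATP and 111 and 183 with AMP at 24 h. At 48 h it had 85.6 and 93.2 CPM with vehicle, 34.04 and 48.2 CPM with ENPP1+ATP and 27.4 and 35.3 CPM with AMP. It was lower by -0.73 ± 0.26 with ENPP1+ATP at 24 h, a call that was lost without either vehicle library or without ENPP1+ATP replicate 1, and by -1.13 ± 0.27 and -1.51 ± 0.28 at 48 h, of which the ENPP1+ATP call was lost without ENPP1+ATP replicate 1. Oasl1, which restrains IRF7 translation, had 100.4 and 101 CPM at 48 h with vehicle, 42.2 and 52.9 CPM with ENPP1+ATP and 36.4 and 39.3 CPM with AMP, and Ifi44 had 333 and 337 CPM with vehicle, 155 and 188 CPM with ENPP1+ATP and 132 and 145 CPM with AMP. Rsad2, which was called higher with AMP at 24 h, had 136 and 139 CPM with vehicle at 48 h and 73.1 and 84.2 CPM with ENPP1+ATP and 68.6 and 74.2 CPM with AMP, and was then called lower. The log2 fold changes at 48 h were -1.08 ± 0.18 and -1.41 ± 0.18 for Oasl1, -0.97 ± 0.12 and -1.27 ± 0.12 for Ifi44 and -0.81 ± 0.14 and -0.94 ± 0.14 for Rsad2.

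In the pairs of libraries, replicate 2 lay above replicate 1 for 41 of 42 members with ENPP1+ATP at 24 h and for 39 with AMP, for 36 with vehicle, 41 with ENPP1 alone and 14 with ATP. At 48 h the numbers were 39, 33, 24, 34 and 8 in the same order of media, so in most groups the members shared part of the spread between the libraries.

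ATP given without ENPP1 and ENPP1 given without ATP separate the 2 components. With ATP alone at 24 h, 7 members were higher and 0 lower in CFs, beside 4.77% of all genes higher and 6.32% lower, and at 48 h 14 were higher and 0 lower, beside 5.35% and 2.48%. The median log2 fold change was 0.18 and 0.23. The fibroblast markers summed to 5235 to 5571 CPM with ATP at 24 h and 6939 to 6949 CPM at 48 h, and 5 monocyte markers to 30.3 to 32.8 CPM against 19.9 to 24.1 CPM with vehicle at 24 h and to 40.9 to 48.2 CPM against 15.6 to 18.2 CPM at 48 h, and their part in these calls was not tested. Oas3, which makes long oligoadenylates, had 45.6 and 57.4 CPM with vehicle at 24 h and 133 and 130.2 CPM with ATP, a difference of 1.37 ± 0.30. Zbp1 had 380.2 and 370.1 CPM with ATP at 24 h and 227 and 199.9 CPM at 48 h, above every vehicle, ENPP1+ATP and AMP library of its time. Irf7 had 1427 and 1349 CPM at 24 h and 1086 and 1055 CPM at 48 h with ATP, and Oas2 had 550.2 and 553 CPM at 24 h and 514 and 432 CPM at 48 h. The number of calls with ATP moved with single libraries: at 24 h it was 0 without ATP replicate 1, 1 without vehicle replicate 1 and 2 without vehicle replicate 2, and at 48 h it was 2 without ATP replicate 1, without vehicle replicate 1 or without vehicle replicate 2, and 5 without ATP replicate 2. Other settings gave more calls, at 24 h 11 with RLE scaling, 18 with DESeq2, 17 with the replicate block and 24 with no filter on low counts, and at 48 h 34 with no filter. With ENPP1 alone, 0 members were called at either time by edgeR, 2 and 0 of them had an unadjusted p under 0.05 at 24 h and 48 h, and DESeq2 called 0 at both times. The members' median log2 fold change with ENPP1 was -0.032 at 24 h and -0.051 at 48 h, beside -1.9e-05 and -0.0081 over all genes. Of the 42 members, 33 and 38 were below 0. A missing call does not show that ENPP1 medium left the members unchanged.

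AMP was set directly against ENPP1+ATP. This comparison is the difference of the 2 changes against vehicle that chose the members, so single members are described with an SE and no p-value. At 24 h, 2 members were higher with AMP and 0 lower, beside 2.6% and 3.65% of all genes in edgeR's fit. These were Ifitm3, with 998 and 1098 CPM with ENPP1+ATP and 1152 and 1310.5 CPM with AMP (0.23 ± 0.065), and Xaf1, with 309 and 329.5 CPM with ENPP1+ATP and 357 and 369 CPM with AMP (0.19 ± 0.053). Without AMP replicate 1 the count was 4, without AMP replicate 2 it was 0 higher and 2 lower, and without ENPP1+ATP replicates 1 and 2 in turn it was 0 and 1. At 48 h edgeR called 0 members, beside 0.0895% of all genes higher and 0.0727% lower, 5 members had an unadjusted p under 0.05, and DESeq2 called 1 lower. The median difference of the members was 0.016 at 24 h and -0.11 at 48 h, beside -0.00089 and 0.012 over all genes. At 48 h 38 of the 42 members were below 0. With no filter on low counts edgeR called several members at each time, most of them higher at 24 h and all of them lower at 48 h. Those counts are given with the processing below. For Isg15 the difference of AMP from ENPP1+ATP was -0.012 ± 0.13 at 24 h and -0.004 ± 0.14 at 48 h, and for Mx1 it was 0.40 ± 0.40 and -0.17 ± 0.56 (log2 ± SE). A p that misses the threshold does not show that both media act alike.

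The members also fell with time in the same medium. In vehicle medium, 37 of 42 were lower at 48 h than at 24 h and 0 higher, with a median of -0.57, beside 3.2% of all genes lower and 1.68% higher. These vehicle libraries also entered the changes that chose the members, so single genes are described with an SE and no p-value. The decreases called were largest for Zbp1 at -1.09 ± 0.26, Ifi47 at -0.99 ± 0.13 and Gbp2 at -0.95 ± 0.16 (edgeR log2 fold change ± SE). The changes of Mx1 at -1.36 ± 0.36 and Oas3 at -1.24 ± 0.32 were larger but did not pass the threshold of the fit. Irf9 at -0.083 ± 0.042 and Irf7 at -0.25 ± 0.11 were also among the 5 not called. The number lower was 21 without vehicle replicate 2 at 24 h, and 20 and 22 without vehicle replicates 1 and 2 at 48 h, and 30 without vehicle replicate 1 at 24 h. With ENPP1+ATP 37 members were lower at 48 h (21.2% of all genes lower), with a median of -0.66, and with AMP 39 were lower (20.8%), with a median of -0.82. The interferon ligand Ifnb1, which is no member, had 1.94 ± 0.265 CPM in vehicle medium at 24 h and 0.487 ± 0.0409 CPM at 48 h (SD, n = 2). For Ifnb1 edgeR gave a log2 fold change of -1.997 ± 0.38 (SE).

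Whether the effect of the medium itself differed between 24 h and 48 h was estimated as an interaction. It is the difference of the changes against vehicle that chose the members, so it is given as a description with its SE and no p-value. With ENPP1+ATP, 6 members were relatively higher at 48 h and 9 lower past the threshold of the fit, beside 15.1% and 14.9% of all genes, and with AMP 4 were higher and 15 lower, beside 17.3% and 14.4%. More members were relatively lower with both media when no filter on low counts was used. Rsad2 had the lowest value with ENPP1+ATP, -1.02 ± 0.19, and Oasl1 the lowest with AMP, -1.47 ± 0.25. Irf9 differed by -0.73 ± 0.060 with ENPP1+ATP and by -0.83 ± 0.060 with AMP, and Irf1 in the other direction by 0.40 ± 0.074 and 0.29 ± 0.073. The number higher with ENPP1+ATP was 1 without ENPP1+ATP replicate 1 or vehicle replicate 2 at 24 h or without vehicle replicate 2 at 48 h, and 2 without ENPP1+ATP replicate 2 or vehicle replicate 1 at 48 h. The number higher with AMP was 2 without AMP replicate 1 at 24 h, and the Oasl1 call with ENPP1+ATP was lost without 6 of the 8 libraries in turn.

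Other genes of the pathway were counted from lists drawn up with earlier results of these data known, so their changes against vehicle are given as descriptions, as edgeR log2 fold changes ± SE without p-values. The shares of all genes to set beside them are those of the same contrasts, 25.3% lower and 23.9% higher with ENPP1+ATP at 24 h and 27.5% and 25.3% with AMP. Of 5 of 12 listed interferon genes that passed the filter in CFs, none was called with ENPP1+ATP and Ifna4 and Ifna2 were higher with AMP at 24 h, and Ifna4 had 1.37 ± 0.27 CPM with vehicle and 4.60 ± 1.58 CPM with AMP (1.72 ± 0.35 in edgeR). At 48 h Ifna4 was the 1 ligand called with AMP, and it was lower, with 10 to 21 counts in the vehicle libraries and 1 to 2 counts with AMP. The alpha interferon genes are near-identical, so their reads may have been split. Of the 9 receptor and kinase genes, 2 were higher and 5 lower with ENPP1+ATP at 24 h, with 0.38 ± 0.048 for the interferon gamma receptor chain Ifngr2, -0.28 ± 0.040 for Jak1, -0.23 ± 0.072 for Tyk2, 0.18 ± 0.061 for Ifnar1 and -0.20 ± 0.066 for Ifnar2. At 48 h 4 of these genes were higher and 1 lower with ENPP1+ATP, and 4 and 1 with AMP, beside 20.8% and 24.4% and beside 21.1% and 22.9% of all genes. Of 8 negative regulators, 5 were higher and 1 lower with ENPP1+ATP at 24 h and 5 and 2 with AMP, led by the phosphatase Ptpn6 at 1.86 ± 0.23 with ENPP1+ATP. Of 8 factors of the STAT and IRF families, 3 were higher and 2 lower with ENPP1+ATP and 4 and 2 with AMP. Of 17 further nucleic acid sensing genes tested, 5 were higher and 6 lower with ENPP1+ATP at 24 h and 6 and 6 with AMP. At 48 h 6 of them were higher and 7 lower with each of these media. Of the 12 genes of class I antigen presentation, 8 were lower and 1 higher at 24 h with ENPP1+ATP, led by the immunoproteasome subunit Psmb8 at -1.17 ± 0.13, the proteasome activator subunit Psme2 at -1.14 ± 0.10 and the immunoproteasome subunit Psmb9 at -1.07 ± 0.20, and the higher one was B2m at 0.31 ± 0.057. Of 50 further interferon-induced genes tested, 29 were lower and 11 higher with ENPP1+ATP at 24 h, and 26 and 9 with AMP. The largest change of the list was an increase of Ifi27 by 3.15 ± 0.081, opposite to most of the list.

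In NRVMs the members were at far lower levels, in a table that was normalized separately. Of 34 members listed, 28 passed the filter, and Ifit1, Oas1a, Oas2, Mx1, Zbp1 and Ifi47 did not. With ENPP1+ATP 16 of the 28 were higher and 3 lower, beside 28.6% and 27.4% of the 13461 genes tested, with a median log2 fold change of 0.55. With AMP 15 were higher and 3 lower (29.2% and 28%), with a median of 0.42, and with ATP alone 13 were higher and 2 lower (30.2% and 29.7%), with a median of 0.49. Over all genes tested the medians were 0.0079, 0.0088 and 0.0064 with ENPP1+ATP, AMP and ATP. A gene that is low in vehicle medium passed the filter only if it was higher elsewhere. The medians of the 28 members include such genes, for which a higher level in some medium was fixed, so nothing is read from them. Of the 21 members that pass in the vehicle libraries alone, 11 were higher and 3 lower with ENPP1+ATP, 11 and 3 with AMP, and 11 and 2 with ATP. With ENPP1 alone edgeR called 0, 3 members had an unadjusted p under 0.05, and DESeq2 called 0.

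Irf7 had 8.39, 7.85 and 8.22 CPM in the vehicle libraries of NRVMs, 26.1, 22.9 and 24.7 CPM with ENPP1+ATP, 27.5, 27.3 and 27.2 CPM with AMP and 27.2, 26.1 and 27.8 CPM with ATP. The groups did not overlap with vehicle, and the log2 fold changes were 1.59 ± 0.10, 1.75 ± 0.094 and 1.73 ± 0.094 (SE, n = 3). Gbp2, a guanylate-binding protein, had 6.39, 5.10 and 6.998 CPM with vehicle, 22.4, 27.3 and 24.3 CPM with ENPP1+ATP and 27.9, 28.7 and 28.3 CPM with AMP, changes of 2.005 ± 0.11 and 2.20 ± 0.11. Ifi35 had 4.26, 5.03 and 4.18 CPM with vehicle, 10.6, 12.01 and 12.2 with ENPP1+ATP and 10.99, 12.4 and 11.8 with AMP. Igtp, an immunity-related GTPase, had 4.74, 3.93 and 4.03 CPM with vehicle, 10.6, 9.84 and 12.02 CPM with ENPP1+ATP and 8.82, 6.87 and 9.89 CPM with AMP. In these 4 genes every treated library was above every vehicle library.

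Stat2 had 46.1, 45.3 and 45.9 CPM with vehicle, 57.97, 61.1 and 62.7 CPM with ENPP1+ATP and 60.5, 63.4 and 61.00 CPM with AMP, and Irf1 had 13.8, 13.2 and 16.4 CPM with vehicle, 17.96, 21.6 and 19.5 CPM with ENPP1+ATP and 21.1, 18.6 and 19.9 CPM with AMP. Both were called higher, by 0.41 ± 0.056 and 0.45 ± 0.10 with ENPP1+ATP, while Irf9 at 0.16 ± 0.12 was not called. Mx2 had 5, 1 and 1 counts in the vehicle libraries and 48, 38 and 22 counts with ENPP1+ATP, so its fitted change of 3.79 ± 0.62 depends on the prior count. Dhx58 had 0.413, 0.276 and 0.837 CPM with vehicle and 1.55, 1.02 and 1.81 CPM with ENPP1+ATP, and Ifit3 had 2, 2 and 6 counts against 10, 11 and 10 counts. The Ifit3 call was lost with DESeq2 and without 5 of the 6 libraries in turn. Isg15 had 2.61, 1.31 and 2.89 CPM with vehicle, 1.62, 2.36 and 2.65 CPM with ENPP1+ATP and 2.04, 2.64 and 3.37 CPM with AMP, overlapping ranges. Ifit1 was at most 0.936 CPM in any NRVM library.

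**Figure D3:**
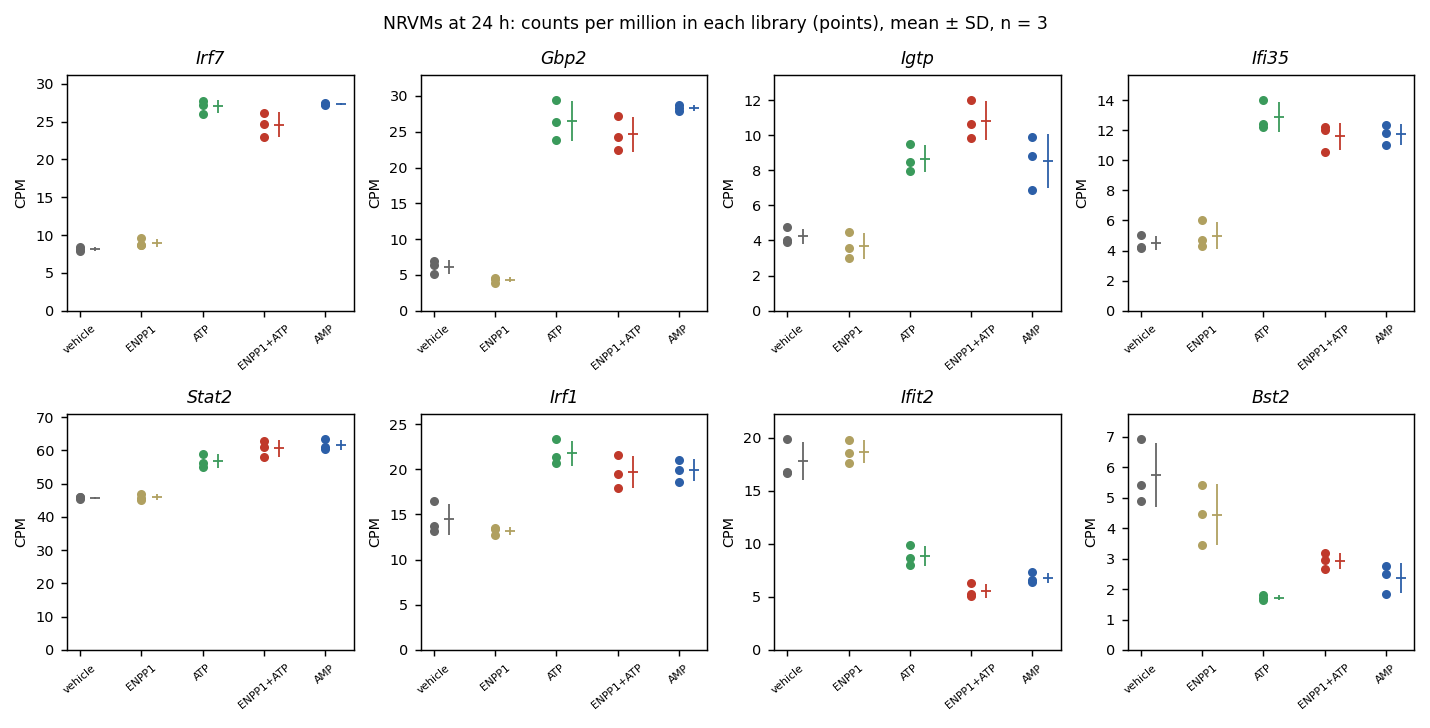
Level of 8 members in each NRVM library in CPM on axes that start at 0, with the mean and SD of the 3 libraries beside the points. Irf7, Gbp2, Igtp and Ifi35 rise from vehicle to ATP, ENPP1+ATP and AMP without overlap, and Ifit2 and Bst2 fall. In each of the 8 genes the mean with ENPP1 alone lies closer to that of vehicle than to those of the other 3 media.

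The 3 members that were lower in NRVMs were Ifit2, Bst2 and Ifitm3. Ifit2 had 16.7, 16.7 and 19.9 CPM with vehicle, 6.27, 5.05 and 5.23 CPM with ENPP1+ATP, 7.30, 6.61 and 6.38 CPM with AMP and 7.99, 8.67 and 9.84 CPM with ATP. Bst2 had 5.43, 4.89 and 6.92 CPM with vehicle, 3.17, 2.94 and 2.65 CPM with ENPP1+ATP, 2.76, 2.51 and 1.82 CPM with AMP and 1.64, 1.72 and 1.80 CPM with ATP. Both lay below all vehicle libraries in each of these media, at -1.69 ± 0.12 and -0.97 ± 0.21 with ENPP1+ATP. Ifitm3 was at -0.28 ± 0.084 with ENPP1+ATP and -0.24 ± 0.083 with AMP, and its AMP call was lost without AMP replicate 1, AMP replicate 2 or vehicle replicate 2. Set directly against ENPP1+ATP, AMP gave 0 calls among the members in edgeR, beside 5.81% of all genes higher and 3.85% lower, and 4 members had an unadjusted p under 0.05. Without AMP replicate 3, 1 member was lower.

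Other genes of the pathway were counted in NRVMs from the same lists in edgeR's fit, beside 28.6% of all genes higher and 27.4% lower with ENPP1+ATP and 29.2% and 28% with AMP. Of 9 class I antigen presentation genes tested, 7 were higher and 0 lower with ENPP1+ATP, among them Tap1, the peptide transporter, at 0.81 ± 0.10. Of 35 further interferon-induced genes tested, 15 were higher and 6 lower with ENPP1+ATP, and 17 and 6 with AMP, led by Gbp4 at 3.84 ± 0.48 with AMP. None of the interferon ligand genes passed the filter in NRVMs. Of 12 further nucleic acid sensing genes tested, 9 were higher and 1 lower with ENPP1+ATP, with a median log2 fold change of 0.35, and 7 and 2 with AMP. The 1 lower with ENPP1+ATP was Tmem173, which encodes the adaptor STING, at -1.21 ± 0.14 with ENPP1+ATP in NRVMs, where in CFs its change was -0.017 ± 0.059 at 24 h and 0.58 ± 0.060 at 48 h.

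The direction in the 2 cell types was then set side by side for the 28 members tested in both. With ENPP1+ATP, 7 members were lower in CFs at 24 h and higher in NRVMs (Ifit3, Trim25, Mx2, Irf1, Igtp, Dtx3l and Ifi44), beside 5.57% of the 10945 genes tested in both tables under the same symbol. With AMP, 6 were lower in CFs and higher in NRVMs (Usp18, Trim25, Irf1, Igtp, Parp9 and Ifi44), beside 7.22% of all genes. This count with AMP was larger when no filter on low counts was used. Against CFs at 48 h the numbers were 9 with ENPP1+ATP and 10 with AMP, beside 7.02% and 6.77%, and included Irf7, Stat2 and Gbp2 with both media. Ifit3, Mx2, Usp18, Dhx58 and Gbp7 passed the filter in NRVMs only through media where they were high, so a higher level in some medium was fixed for them. Of the 21 members that pass in the vehicle libraries of NRVMs alone, the counts were 5 with ENPP1+ATP and 5 with AMP at 24 h, and 6 and 7 at 48 h. These contrasts chose the members, so nothing is read from the shares. Bst2 and Ifit2 were lower in both cell types at 24 h with both media. With ATP alone 0 members had opposite calls at either time, beside 1.33% of all genes lower in CFs at 24 h and higher in NRVMs and 0.347% with CFs at 48 h. The difference between the cell types was not tested, and species, table and cell type cannot be told apart in it. Without ENPP1+ATP replicate 1 or vehicle replicate 2 of the CFs at 24 h the count of 7 became 4, without ENPP1+ATP replicate 1 at 48 h the count of 9 became 5, and without AMP replicate 1 at 24 h the count of 6 became 3.

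**Figure D4:**
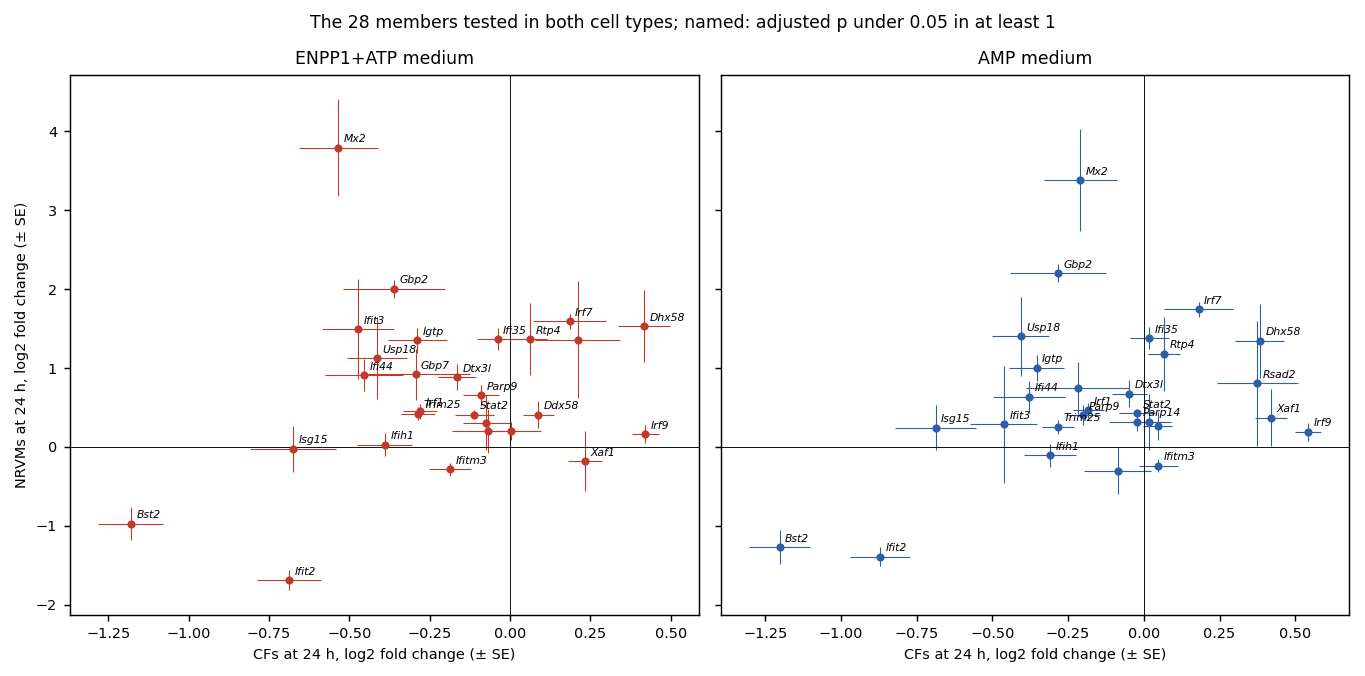
Log2 fold change against vehicle, with SE, of the 28 members tested in both cell types, in CFs at 24 h (horizontal) and NRVMs at 24 h (vertical), with ENPP1+ATP and AMP. Named genes passed an adjusted p of 0.05 in at least 1 cell type. The upper left corner holds members lower in CFs and higher in NRVMs, among them Igtp and Ifi44, and Bst2 and Ifit2 lie at the lower left.

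Trim25 serves as an example of the opposite calls. It had 243 and 253 CPM in CFs with vehicle at 24 h and 198 and 208 CPM with ENPP1+ATP, a change of -0.29 ± 0.053. In NRVMs it had 17.1, 19.9 and 20.01 CPM with vehicle and 23.7, 26.2 and 26.4 CPM with ENPP1+ATP, a change of 0.42 ± 0.087. Neither pair of groups overlapped. Igtp changed by -0.29 ± 0.091 in CFs and 1.35 ± 0.16 in NRVMs, Dtx3l, the ubiquitin ligase that pairs with PARP9, by -0.16 ± 0.058 and 0.88 ± 0.16, and Ifi44 by -0.45 ± 0.12 and 0.91 ± 0.20. These last 3 lost the CF call without ENPP1+ATP replicate 1 and without vehicle replicate 2.

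In the injured heart, the members were measured in single cells of ENPP1CKO and control mice. The libraries held 7460 and 5347 cell barcodes, of which 68 sequences occurred in both, and 7252 and 5236 cells were kept after filters and removal of predicted doublets (2.08% and 1.38% of cells). Cells were clustered without interferon genes and named by fixed markers, which gave 3720 and 1856 fibroblast-like, 2014 and 2440 macrophage-like and 933 and 191 endothelial-like cells. The clusters were rebuilt here, so they need not match other namings. With 1 library per genotype there is no test, and intervals cover counting error alone. The targeted gene, Enpp1, had a level of 28.7 CPM in fibroblast-like cells with the deletion against 129 CPM without, and the log2 ratio was -2.17 (95% interval -2.32 to -2.02).

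The level of several members differed between cell classes. Ifitm3 was the most abundant member, with 4576 CPM in endothelial-like, 1721 CPM in fibroblast-like and 1222 CPM in macrophage-like cells of the control library. Iigp1 had 178 CPM in endothelial-like, 59.4 CPM in fibroblast-like and 10.1 CPM in macrophage-like cells, and Irf7 had 129, 50.1 and 126 CPM. Mx1 was at 2.80 CPM in fibroblast-like cells. Genes of other cell types put the share of free RNA at 3.13% to 4.85% of the counts in these 3 classes, and the classes are not compared per length.

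Summed over the 41 members, fibroblast-like cells had 2946 CPM with the deletion and 3334 CPM without it, and the log2 ratio of ENPP1CKO over control was -0.18 (95% interval -0.20 to -0.16). Without Ifitm3 and Bst2, which make up most of the sum and were set aside after their levels were seen, it was 1028 and 1211 CPM, a log2 ratio of -0.24 (-0.27 to -0.20). Of the 40 members with at least 20 counts, 13 were at least 20% lower and 0 at least 25% higher with the deletion, beside 15.9% and 16.4% of all genes, and the median log2 ratio was -0.18 beside 0.0077 over all genes. Isg15 had 143 CPM with the deletion and 200.3 CPM without it, a ratio of -0.48 (-0.57 to -0.40). Ifit1 had 43.1 CPM with the deletion and 66.8 CPM without it, a ratio of -0.63 (-0.79 to -0.48). The lowest ratios were those of Oas1a at -0.89 (-1.35 to -0.44), Igtp at -0.66 (-0.93 to -0.39) and Ifit1, followed by Rtp4 at -0.59 (-0.76 to -0.43) and Mx1 at -0.53 (-1.30 to 0.25), whose interval includes 0. The highest were Trim30a at 0.25 (0.026 to 0.47), Irf7 at 0.20 (0.043 to 0.36) and Ifit2 at 0.19 (-0.16 to 0.55), with Gbp2 and Parp9 at 0.14 and 0.13 next. In fibroblast-like cells 10 cell cycle genes summed to 69.1 CPM with the deletion and 152 CPM without it. The 10 macrophage markers summed to 244 and 337 CPM and 6 monocyte markers to 147 and 204 CPM. Their part in the ratios was not tested.

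The fibroblast-like clusters were filled differently by the libraries. Cluster 0 held 1885 cells of the ENPP1CKO and 379 of the control library, cluster 1 held 740 and 229, and cluster 2 held 1095 and 1248. Without Ifitm3 and Bst2 the log2 ratio of the sum was -0.51 (-0.57 to -0.46) in cluster 0, -0.052 (-0.15 to 0.045) in cluster 1 and -0.44 (-0.49 to -0.38) in cluster 2. This ratio was thus below 0 beyond counting error in 2 of the 3 clusters. For the whole sum it was -0.27 (-0.31 to -0.24) in cluster 0 and -0.15 (-0.21 to -0.095) in cluster 1. In cluster 2 it was -0.27 (-0.30 to -0.24), so the whole sum lay below 0 beyond counting error in all 3.

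**Figure D5:**
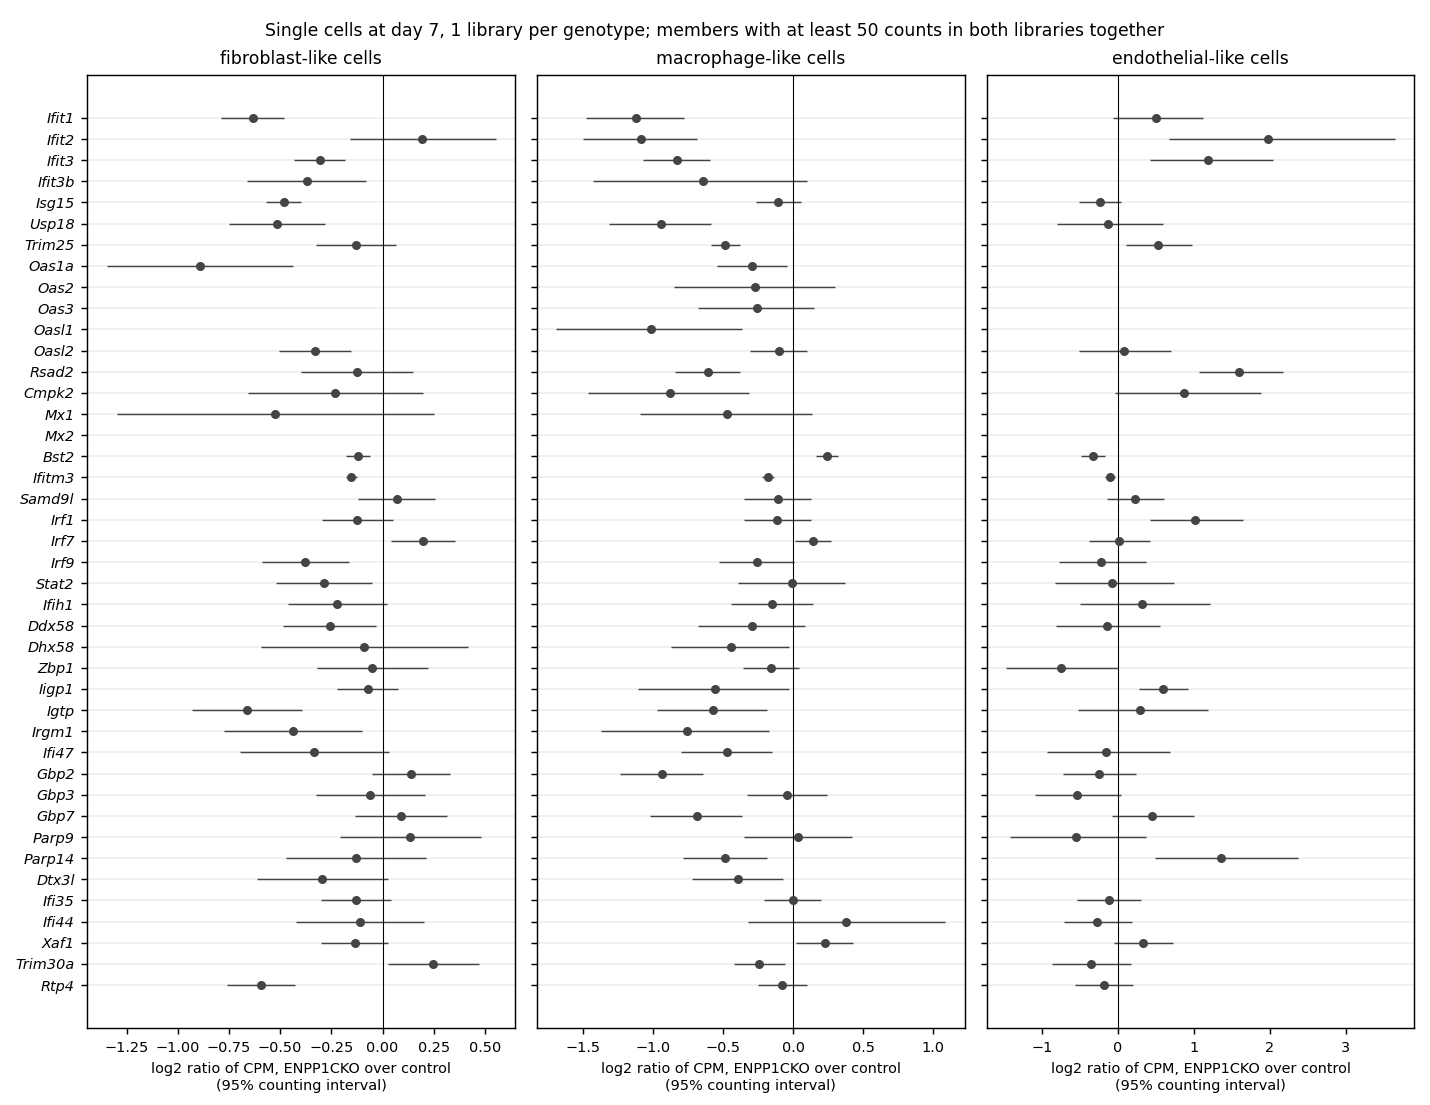
Log2 ratio of the summed CPM of each member in ENPP1CKO over control cells at 7 days after injury, with the 95% counting interval, in fibroblast-like, macrophage-like and endothelial-like cells (1 library per genotype, members with at least 50 counts). In fibroblast-like and macrophage-like cells most points lie left of 0, and in endothelial-like cells Ifit2 at 1.97 and Rsad2 at 1.59 lie furthest right.

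In macrophage-like cells the sum was 2738 and 3088 CPM, a log2 ratio of -0.17 (-0.20 to -0.15), and -0.28 (-0.32 to -0.24) without Ifitm3 and Bst2. Of 41 members, 19 were at least 20% lower and 1 at least 25% higher, beside 31.3% and 9.37% of all genes, and the median was -0.29 beside -0.13 over all genes. Ifit1 was at -1.12 (-1.47 to -0.78), Ifit2 at -1.08 (-1.50 to -0.68) and Oasl1 at -1.01 (-1.69 to -0.37). The ISG15 protease Usp18 was at -0.94 and Gbp2 at -0.94, whereas Isg15 itself was at -0.10 (-0.27 to 0.057). Ifi44 at 0.38 (-0.32 to 1.08) and Bst2 at 0.24 (0.17 to 0.32) had the highest ratios, followed by Xaf1 at 0.23, Irf7 at 0.14 and Parp9 at 0.035. By cluster, the log2 ratio of the whole sum was -0.31 (-0.36 to -0.25) in cluster 6, -0.015 (-0.051 to 0.021) in cluster 7 and 0.20 (0.081 to 0.32) in cluster 10, and without Ifitm3 and Bst2 it was -0.51, -0.28 and -0.36. Cluster 10 held 52 cells of the ENPP1CKO library and 816 of the control library. Without it the log2 ratio was -0.094 for the whole sum and -0.34 without Ifitm3 and Bst2. In the whole macrophage-like class 6 monocyte markers summed to 150 CPM with the deletion and 307 CPM without it. The 8 neutrophil markers summed to 36.9 and 82.5 CPM and the 10 macrophage markers to 25162 and 19736 CPM. Their part in the ratios was not tested.

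Endothelial-like cells went the other way for several members. The whole sum was 7684 and 7822 CPM, a log2 ratio of -0.026 (-0.075 to 0.024), and without Ifitm3 and Bst2 it was 2725 and 2373 CPM, a ratio of 0.20 (0.11 to 0.29). With predicted doublets kept these ratios were -0.065 (-0.11 to -0.018) and 0.093 (0.010 to 0.18). Of 37 members, 15 were at least 25% higher and 6 at least 20% lower, beside 24.5% and 26.6% of all genes. Rsad2 had 173 CPM with the deletion and 57.4 CPM without it, a ratio of 1.59 (1.06 to 2.17). Ifit2 was at 1.97 (0.67 to 3.65), the ADP-ribosyltransferase Parp14 at 1.36, Ifit3 at 1.18 (0.42 to 2.04) and Irf1 at 1.01. Zbp1 at -0.75 (-1.47 to -0.004), Parp9 at -0.55, Gbp3 at -0.53, Trim30a at -0.35 and Bst2 at -0.33 (-0.48 to -0.17) had the lowest ratios. The class pooled cluster 3, with 868 ENPP1CKO and 161 control cells, and cluster 13, with 65 and 30. Cluster 13 had Ccl21a and Prox1 among its top genes. In cluster 3 alone the ratio was 0.018 (-0.036 to 0.072) for the whole sum and 0.24 (0.14 to 0.33) without Ifitm3 and Bst2. The median count per endothelial-like cell was 1475 with the deletion and 2597 without it. In this class 10 T or NK cell markers summed to 9.82 CPM with the deletion and 73.6 CPM without it. The 10 smooth muscle or pericyte markers summed to 132 and 75.4 CPM. Their part in the ratios was not tested.

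Another 3 classes had at least 50 cells in each library. Without Ifitm3 and Bst2 the log2 ratio of the sum was -0.61 (-0.81 to -0.41) in dendritic-like cells (80 and 95 cells), -0.11 (-0.30 to 0.074) in T or NK cell-like cells (179 and 141) and 0.022 (-0.19 to 0.23) in smooth muscle or pericyte-like cells (160 and 79). In dendritic-like cells the 9 dendritic markers summed to 1189 CPM with the deletion and 1816 CPM without it, 10 macrophage markers to 436 and 752 CPM and 8 neutrophil markers to 339 and 570 CPM. In T or NK cell-like cells the 10 macrophage markers summed to 2684 and 903 CPM and the 10 fibroblast markers to 1303 and 2471 CPM. In smooth muscle or pericyte-like cells the 10 fibroblast markers summed to 7696 and 12454 CPM and 6 monocyte markers to 53.1 and 881 CPM. The 10 smooth muscle or pericyte markers summed to 11685 and 8641 CPM there, so fibroblast markers exceeded them in the control library. The part of these markers in the ratios was not tested.

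The members were detected together in a minority of cells. With each cell thinned to 2000 counts, 4.53% of fibroblast-like cells of the ENPP1CKO library (exact 95% interval 3.84% to 5.29%) and 6.42% of the control library (5.30% to 7.70%) had at least 8 members, and in unthinned cells the shares were 12.1% and 21.2%. Thinning left out 429 and 159 shallower cells, and the median counts were 4045 and 5135. In macrophage-like cells the thinned shares were 6.52% and 8.32%, with 341 and 686 cells left out, and in endothelial-like cells they were 18.6% and 19.5%, with 637 and 73 left out. Among thinned fibroblast-like cells of the control library with a count of Isg15, 30.3% also had one of Ifit3, against 3.24% of cells without Isg15. In the ENPP1CKO library these shares were 26.7% and 3.02%. For Irf1 in place of Ifit3 the shares were 6.77% and 8.94% in the control library and 7.40% and 7.42% with the deletion. In macrophage-like cells with the deletion Ifit3 was found in 21.3% of cells with Isg15 and 2.67% without it. In macrophage-like control cells these shares were 25.1% and 3.38%. For Irf1 in macrophage-like cells they were 11.5% and 5.74% with the deletion and 9.63% and 6.19% in the control library. In endothelial-like control cells, of which 36 had Isg15, Irf1 was found in 13.9% and 3.66%. Ifit1 was found there in 8.33% and 7.32% and Ifit3 in 8.33% and 2.44%. In endothelial-like cells with the deletion, of which 72 had Isg15, Irf1 was found in 22.2% and 15.6%, Ifit1 in 23.6% and 3.13% and Ifit3 in 18.1% and 4.46%. These shares describe cells of 1 library each, which are not replicates.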

How the data were processed

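RNA was sequenced from CFs (20 libraries), NRVMs (15 libraries) and nonmyocytes of injured hearts (2 single-cell libraries). The deposited values were raw counts per gene in each table. The submitters' processing notes name STAR 2.5.3a, Cell Ranger and the builds mm10 and rn6, and no columns were left unused. Bulk counts were tested with edgeR 4.0.16 (R 4.3.3) in its quasi-likelihood fit, 1 fit per table with all its libraries, TMM scaling, the filter of filterByExpr and Benjamini-Hochberg adjustment over all genes tested, at an adjusted p of 0.05. The steps were tested on simulated data. Rat gene lengths and promoters were not used here, so levels per length are given for mouse CFs alone.

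Single cells were kept at a minimum of 200 genes and a maximum of 20% mitochondrial counts, predicted doublets were removed, and clusters (scanpy 1.11.5, 2000 variable genes, 30 components, Leiden resolution 0.5) were made without interferon genes. A cluster was named by at least 3 markers. Counts were summed per class and library, with exact 95% intervals (Poisson for levels, binomial for ratios and shares) that cover counting error only.

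The members, the pathway lists and the tests were chosen with earlier results of these data known. Values per library are given for members past the threshold whose groups did not overlap, up to 6 per direction, for Isg15, Ifit1, Irf7, Irf9, Stat2 and Irf1 in any case, and for members with opposite calls. In single cells the 5 highest and 5 lowest ratios with at least 50 counts are named, and of each pathway list up to 3 genes by size of change, beside others named after their values were seen. Alternatives were RLE scaling, DESeq2 1.42.0, no filter on low counts, a replicate block, leaving out each library in turn, and stricter cells, another clustering, doublets kept and thinned counts for single cells.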

Additional observations from a re-analysis of the deposited data

Results flagged for a closer look

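In CFs, the change from vehicle medium differed between 48 h and 24 h past the threshold of edgeR's interaction term for 6 members higher and 9 lower with ENPP1+ATP, beside 15.1% and 14.9% of all genes, and for 4 and 15 with AMP, beside 17.3% and 14.4%. Since the changes against vehicle chose the members, these are descriptions. With ENPP1+ATP the members that were relatively lower at 48 h, on the log2 scale, were Rsad2 at -1.02, Oasl1 at -0.80, Irf9 at -0.73, Cmpk2 at -0.65, Irf7 at -0.57, Dhx58 at -0.53, Ifi44 at -0.51, Ddx58 at -0.32 and Xaf1 at -0.29, and those relatively higher were Irgm1 at 0.23, Dtx3l at 0.23, Ifitm3 at 0.27, Ifit1 at 0.28, Irf1 at 0.40 and Ifit2 at 0.44. With AMP the members relatively lower were Oasl1 at -1.47, Rsad2 at -1.32, Zbp1 at -1.15, Ifi44 at -0.89, Irf9 at -0.83, Irf7 at -0.79, Cmpk2 at -0.70, Gbp3 at -0.67, Xaf1 at -0.67, Dhx58 at -0.61, Mx2 at -0.59, Ifit3b at -0.55, Ddx58 at -0.44, Stat2 at -0.39 and Oasl2 at -0.38, and those relatively higher were Irgm1 at 0.22, Irf1 at 0.29, Bst2 at 0.47 and Ifit2 at 0.64. Rsad2, Oasl1, Irf9, Cmpk2, Irf7, Dhx58, Ifi44, Ddx58 and Xaf1 were relatively lower with both media, which share the vehicle libraries.

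In some members every treated CF library at 24 h was below every vehicle library while every treated NRVM library was above, and the difference between the cell types was not tested. With ENPP1+ATP these were, by their log2 change in CFs, Mx2 at -0.53, Ifit3 at -0.47, Ifi44 at -0.45, Gbp2 at -0.36, Igtp at -0.29, Trim25 at -0.29, Irf1 at -0.28, Dtx3l at -0.16 and Stat2 at -0.11. With AMP they were Usp18 at -0.41, Ifi44 at -0.38, Igtp at -0.35, Trim25 at -0.28 and Irf1 at -0.18. Of the 10945 genes tested in both tables under the same symbol, 9.63% had this pattern with ENPP1+ATP and 10.4% with AMP. Mx2, Ifit3 and Usp18 passed the filter in NRVMs only through media where they were high, so a higher level in some medium was fixed for them.

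In single cells the summed members without Ifitm3 and Bst2 had a log2 ratio of ENPP1CKO over control of -0.24 in fibroblast-like, -0.28 in macrophage-like cells, and one of 0.20 in the endothelial-like class, which was 0.093 with predicted doublets kept. In smaller classes it was -0.11 in T or NK cell-like, -0.61 in dendritic-like and 0.022 in smooth muscle or pericyte-like cells. This difference between classes was not tested, since each genotype is 1 library.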

How the results depend on the processing

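No value of a single member that was called changed its direction under RLE scaling, DESeq2, no filter or the replicate block, and of 1320 such values 4 lost the call (Ifit3 in NRVMs with ENPP1+ATP under DESeq2 and with no filter, Ifit3 with ATP under DESeq2, and Ddx58 under DESeq2). Leaving out 1 library at a time gave 1560 values, of which 303 lost the call and 0 changed direction. The cause of the moved counts below was not tested.

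With no filter on low counts, members higher were 6 with ENPP1+ATP at 24 h, 24 with ATP at 24 h, 1 with ENPP1+ATP and 1 with AMP at 48 h, and 34 with ATP at 48 h in CFs. AMP against ENPP1+ATP then gave 8 higher and 1 lower at 24 h and 9 lower at 48 h, the interaction gave 16 lower with ENPP1+ATP and 24 with AMP, and 10 members were lower in CFs at 24 h and higher in NRVMs with AMP. With RLE scaling ATP at 24 h gave 11 higher (median 0.20) and ENPP1+ATP at 48 h gave 1, and with DESeq2 these were 18 (median 0.20) and 1, and AMP against ENPP1+ATP at 48 h gave 1 lower. With the replicate block, 5 members were higher with ENPP1+ATP and 17 with ATP at 24 h. Over all genes tested, deviations of libraries with the same replicate number correlated at -0.11 to 0.13 in CFs and at -0.14 to 0.06 in NRVMs. These values do not decide whether the members pair by replicate number. In CFs at 24 h, replicate 2 lay above replicate 1 for 41 of 42 members with ENPP1+ATP and 36 with vehicle. With ATP it did so for 14.

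Leaving out 1 library gave, in CFs at 24 h, a median of -0.38 to -0.16 with ENPP1+ATP and -0.37 to -0.057 with AMP. It gave 3 to 6 members higher with AMP at 24 h, 0 to 6 with ATP at 24 h (median 0.15 to 0.21) and 2 to 5 with ATP at 48 h, and a median of -0.50 to -0.45 with AMP at 48 h. AMP against ENPP1+ATP gave 0 to 4 higher and 0 to 2 lower at 24 h, and 0 to 1 lower at 48 h (median -0.18 to -0.033). Against 24 h, 20 to 30 members were lower with vehicle (median -0.60 to -0.53), and the median with AMP was -0.93 to -0.68. The interaction gave 1 to 7 higher with ENPP1+ATP (median -0.22 to 0.015) and 2 to 6 with AMP (median -0.49 to -0.070). In NRVMs the median with ATP was 0.45 to 0.51, and AMP against ENPP1+ATP gave 0 to 1 lower (median -0.15 to -0.023). Members lower in CFs and higher in NRVMs numbered 4 to 8 with ENPP1+ATP at 24 h, 5 to 10 at 48 h, and 3 to 9 with AMP at 24 h, and restricting them to members that pass the filter in the vehicle libraries of NRVMs, a choice made after seeing the data, kept each count within 1.5 times.

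The log2 ratio of the summed members in fibroblast-like cells was -0.21 with cells of at least 500 genes, -0.23 thinned, and -0.27, -0.15 and -0.27 in clusters 0, 1 and 2, and without Ifitm3 and Bst2 it was -0.29, -0.31, -0.51, -0.052 and -0.44. In macrophage-like cells it was -0.092 with interferon genes kept in the clustering and -0.094 without cluster 10, where it was -0.34 without Ifitm3 and Bst2. In endothelial-like cells it was -0.065 for the whole sum and 0.093 without Ifitm3 and Bst2 when doublets were kept. The cluster settings and the sums without Ifitm3 and Bst2 were chosen after seeing the data. In NRVMs, depth limits members with few counts, such as Ifit3 and Mx2.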
